A study of Arabidopsis thaliana with 6 samples.

Results

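The genes of the mitochondrial genome were analysed in 6 RNA-seq libraries of Arabidopsis thaliana embryos, 1 library for each of 10, 25, 50, 75 and 100 pg and 5 ng of total RNA. They were taken as all gene models whose identifier starts with ATMG, which gave 146 of the 33602 models counted. The study made the 6 libraries from dilutions of 1 RNA sample of microdissected whole cotyledons, to find how little RNA still gives a usable transcriptome. All are from untreated wild type plants of accession Columbia, and the labels give the tissue only as seed. With 1 library per amount there is no spread between replicates, so pairs of amounts are compared as values without a test, and a test was run only on the trend with amount up to 100 pg. All 5 marker genes of embryo and cotyledon had pairs in every library, while the 5 endosperm markers summed to at most 2.95 CPM (read pairs of a gene per 1000000 counted pairs). The 5 seed coat markers summed to 0.103 to 12.5 CPM in the libraries from 10 to 100 pg and to 45.2 CPM at 5 ng. Per the study, the 5 ng library was sequenced at a first date, those from 10 to 75 pg at a second date and the 100 pg sample at both, of which the study kept the second run for its analyses. The 100 pg library held 38317268 pairs before counting, the library size that the study tabulates for 100 pg. Of these pairs 80.3% were counted, against 89.0 to 90.9% at 10 to 75 pg. The labels do not say which run of the 100 pg sample was deposited, and it was taken here to be the second. Amount and date then cannot be told apart at 5 ng, and if it were the first, the trend from 10 to 100 pg would also mix amount and date.

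Plant mitochondria keep a small genome of their own, which encodes subunits of the respiratory chain complexes and of the ATP synthase. It also encodes factors for cytochrome c maturation, some ribosomal proteins, a maturase, a membrane transporter, and ribosomal and transfer RNAs. Most other mitochondrial proteins are encoded in the nucleus and imported. In plant mitochondria a poly(A) tail marks a transcript for decay rather than for translation, in contrast to the nuclear mRNA tail. The libraries were primed on poly(A) with the SMART-Seq v4 kit and amplified by PCR, so the mitochondrial values describe the molecules caught by this priming and not the level of each transcript in the organelle. In Arabidopsis, chromosome 2 also carries a large copy of the mitochondrial genome, annotated as nuclear gene models. Pairs that matched 2 models equally well were removed by the authors.

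Of the 146 models, 84 had at least 1 read pair in some library and 62 had none in any. Among these 62, 57 had no individually counted read either. Only 24 models had a pair in all 6 libraries, and 16 had at least 10 pairs in each. Another 20 were seen in 1 library only. In total 4136 to 7812 pairs per library were counted on mitochondrial genes, out of 22403342 to 51130296 pairs.

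The mitochondrial genes took 0.0237%, 0.0189%, 0.0273%, 0.0242% and 0.0221% of the counted pairs in the libraries of 10, 25, 50, 75 and 100 pg, and 0.00809% in that of 5 ng. The Clopper-Pearson 95% intervals, which cover counting error only, were, in the same order, 0.0231 to 0.0243%, 0.0184 to 0.0195%, 0.0267 to 0.0279%, 0.0236 to 0.0249%, 0.0216 to 0.0226% and 0.00784 to 0.00834%. The order of the 5 smaller amounts did not follow the amount: 50 pg was the highest and 25 pg the lowest, and only the intervals of 10 and 75 pg overlapped. The 5 ng library lay below all of them. That position depended on the scaling. Without the 10 genes with the most pairs of each library, the mitochondrial share was 0.0237% at 5 ng, inside the range of 0.0210 to 0.0290% of the other libraries. With TMM-scaled library sizes (the trimmed mean of M-values, a normalization that assumes most genes do not differ), it was 0.0265% at 5 ng and 0.0156 to 0.0221% in the others. Whether the mitochondrial RNA was lower or higher at 5 ng therefore cannot be read from these counts, while the make-up of the set does not depend on the scaling. Counted as individual reads instead of pairs, the set took 0.0237%, 0.0200%, 0.0276%, 0.0239% and 0.0217% from 10 to 100 pg and 0.00717% at 5 ng.

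**Figure D1:**
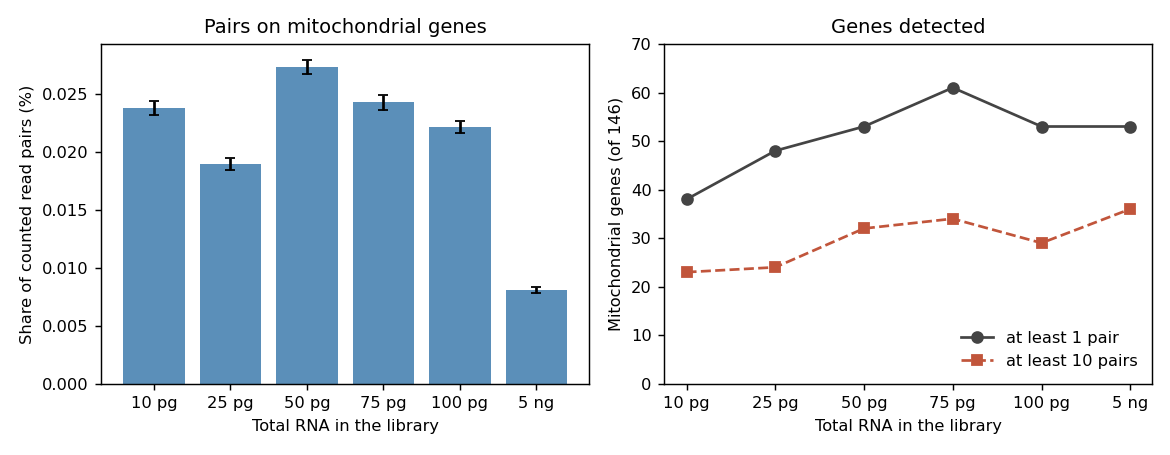
The left panel plots the share of counted read pairs on the 146 mitochondrial genes (percent of the library's pairs, bars from 0, with Clopper-Pearson 95% intervals) for the 6 libraries, and the right panel plots how many of these genes had at least 1 pair (circles) or at least 10 pairs (squares). The share lies between 0.0189% and 0.0273% from 10 to 100 pg and is 0.00809% at 5 ng, and the fewest genes, 38, were detected at 10 pg.

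The pairs were concentrated on few genes. The models rps3, nad4, rpl16 and ATMG00660, had the highest mean CPM over the libraries from 10 to 100 pg, and these 4 held 74.0%, 71.6%, 72.1%, 69.2% and 74.3% of the mitochondrial pairs at 10, 25, 50, 75 and 100 pg. At 5 ng the same 4 held 40.8% (95% interval 39.3 to 42.3%). In CPM they summed to 136 to 197 from 10 to 100 pg and to 33.0 at 5 ng, whereas all other mitochondrial genes summed to 53.7 to 75.9 and to 47.9. These 4 were picked for their level in the smaller libraries, so their difference from 5 ng is a description. The effective number of genes, the count of equally abundant genes that would give the same diversity, was 8.40, 9.51, 9.88, 12.3 and 8.60 from 10 to 100 pg and 20.5 at 5 ng.

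**Figure D2:**
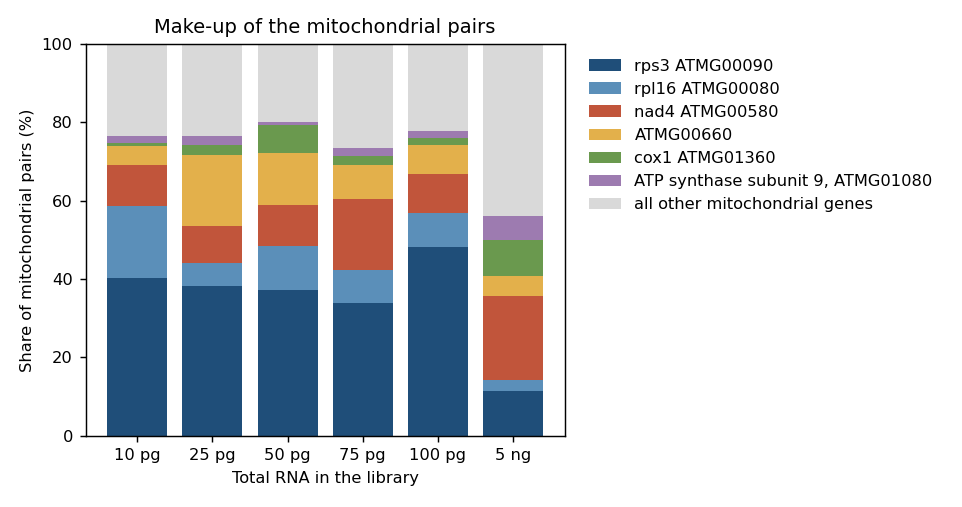
Stacked bars give the share of the mitochondrial pairs (percent, each bar summing to 100) held by rps3, rpl16, nad4, ATMG00660, cox1 and ATMG01080, with all other mitochondrial genes in grey, for the 6 libraries. rps3 is the largest segment from 10 to 100 pg, at 34.0 to 48.2%, and nad4 is the largest at 5 ng, at 21.4%.

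Of the groups of known function, the ribosomal protein genes held the most counted pairs in the smaller libraries. The gene rps3 (ATMG00090) encodes a protein of the small ribosomal subunit and had 2547, 2110, 2913, 1847 and 3278 pairs from 10 to 100 pg and 473 at 5 ng. It led the set in all 5 smaller libraries, with 40.2%, 38.2%, 37.3%, 34.0% and 48.2% of the mitochondrial pairs, and took 11.4% at 5 ng. Its CPM spanned only 1.47-fold between the highest and the lowest of the 5 smaller libraries, the narrowest span of the 24 models seen in all libraries. The gene rpl16 (ATMG00080), for a protein of the large ribosomal subunit, had 1165, 319, 867, 447 and 590 pairs from 10 to 100 pg and 119 at 5 ng. rpl16 follows rps3 on the mitochondrial genome and their coding sequences overlap, so pairs near the junction cannot be assigned with certainty. The ratio of rps3 to rpl16 pairs was nevertheless uneven: 2.19, 6.61, 3.36, 4.13 and 5.56 from 10 to 100 pg, and 3.97 at 5 ng. Next in the group, rpl2 (ATMG00560), had 212 pairs at 10 pg but 3 at 25 pg, then 78, 38 and 87, and 45 at 5 ng. The remaining models of the group, rps4, rps7, rpl5 and rps12, had 3, 2, 1 and 0 pairs over the 6 libraries. Their whole coding sequences are also held by nuclear models, as described further on, unlike those of rps3 and rpl16. Their counts therefore set no limit on their levels, and shares of groups are not levels by function. Together the 7 ribosomal protein models held 61.9%, 44.1%, 49.4%, 43.0% and 58.2% of the mitochondrial pairs from 10 to 100 pg and 15.4% at 5 ng.

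Complex I, the NADH dehydrogenase at the entry of the respiratory chain, was represented by 8 models that could be assigned to it. Of these, 5 had pairs in all 6 libraries. Its leading member nad4 (ATMG00580) had 660, 521, 813, 992 and 682 pairs from 10 to 100 pg and 887 at 5 ng. It took 9.44 to 18.3% of the mitochondrial pairs in the smaller libraries and 21.4% at 5 ng, where it led the set. There were 3.86, 4.05, 3.58, 1.86 and 4.81 pairs on rps3 for each pair on nad4 from 10 to 100 pg, and 0.533 at 5 ng (counting interval 0.476 to 0.597). Thus the order of these genes by pairs was turned round at 5 ng, and 75 pg stood apart from the other small libraries. At 5 ng nad4 had 1.32 individually counted reads per pair against 2.04 for rps3. By reads the reversal at 5 ng was therefore smaller, with nad4 still ahead. The gene nad9 (ATMG00070) had 233, 37, 101, 81 and 151 pairs and 126 at 5 ng. A model for part of the trans-spliced nad5 (ATMG00513) had 12, 292, 54, 110 and 64 pairs and 150 at 5 ng, so its lowest and highest libraries were those of 10 and 25 pg. The model for part of nad2 (ATMG01320), also trans-spliced, was more even, with 59, 108, 106, 77 and 57 pairs and 63 at 5 ng. The gene nad7 (ATMG00510) had 18, 0, 29, 63 and 6 pairs and 23 at 5 ng. A model annotated through its nuclear copy as NADH dehydrogenase 3 (ATMG00990) had 1 pair at 10 pg, then 56, 17, 24 and 92, and 36 at 5 ng. As a group the assigned complex I models held 14.3 to 24.8% of the mitochondrial pairs in the smaller libraries and 31.1% at 5 ng. No model could be assigned to nad6 or nad4L. For this and the other groups, models without an assignment were counted among the other models, so a group's share covers its assigned models only.

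For complex IV, the cytochrome c oxidase, all 3 assigned models had pairs in every library. The gene cox1 (ATMG01360), which encodes the catalytic subunit, had 46, 149, 567, 114 and 125 pairs from 10 to 100 pg and 376 at 5 ng. The 50 pg library thus stood above the other small ones, and only nad4 and rps3 exceeded cox1 at 5 ng. The gene cox2 (ATMG00160), for the subunit that receives electrons from cytochrome c, had 208 pairs at 10 pg, then 48, 88, 54 and 6, and 58 at 5 ng. Its highest library was that of 10 pg, where cox1 was lowest, and its lowest was that of 100 pg. The last model, annotated through its nuclear copy as cytochrome c oxidase subunit 3 (ATMG00730), had 2, 7, 65, 13 and 1 pairs and 34 at 5 ng. The group held 1.94 to 9.22% in the smaller libraries and 11.3% at 5 ng. The single gene of complex III, cob (ATMG00220) for apocytochrome b, had 0 pairs in all 6 libraries. Since its whole coding sequence is also held by nuclear models, as described further on, this sets no limit on its level.

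The ATP synthase is the enzyme that makes ATP from the proton gradient. The 5 models assigned to it held 4.15%, 3.73%, 2.66%, 5.87% and 3.80% of the mitochondrial pairs from 10 to 100 pg and 13.5% at 5 ng. A model annotated as F0-ATPase subunit 9 (ATMG01080) led them with 119, 127, 53, 111 and 120 pairs and 254 at 5 ng. The gene atp1 (ATMG01190), for the alpha subunit of the catalytic head, was among the even members, with 122, 58, 93, 92 and 69 pairs and 78 at 5 ng. In contrast, atp4 (ATMG00640) had 0, 0, 2, 58 and 5 pairs from 10 to 100 pg, against 180 at 5 ng. A model annotated as ATPase subunit 6-1 (ATMG00410) had 19, 20, 55, 53 and 50 pairs and 45 at 5 ng, and one for an F0 subunit (ATMG00480) had 1 to 14 pairs per library.

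The factors for cytochrome c maturation, which attach haem to the c-type cytochromes, had few counted pairs. None of their 5 models had pairs in all 6 libraries, and they held 0.0316% and 0.109% of the set in the 10 and 25 pg libraries and 0.960 to 1.27% in the 4 larger ones. The most abundant, ccmB (ATMG00110), had 0 pairs at 10 and 25 pg, then 55, 32 and 45, and 41 at 5 ng. The coding sequences of ccmC and ccmFN1 are wholly or largely held by nuclear models too, so their low counts do not show a low level. ATMG00180, annotated as a cytochrome c biogenesis protein, had 17 pairs at 75 pg and 0 elsewhere.

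The 18S ribosomal RNA gene rrn18 (ATMG01390) had 38, 30, 38, 32 and 59 pairs from 10 to 100 pg and 136 at 5 ng, after removal of ribosomal sequences by the authors. These counts are what that filter left. The 5S gene rrn5 (ATMG01380) had 0 pairs in all libraries.

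The other 115 models, to which the annotation used here gives no name in the lists, held 13.7 to 29.4% of the mitochondrial pairs in the smaller libraries and 24.3% at 5 ng, and 57 of them had a pair somewhere. The most abundant of them was ATMG00660, with 316, 1003, 1043, 472 and 498 pairs from 10 to 100 pg and 208 at 5 ng. Scaled to model length it was the second of the whole set, with a mean of 53.3 CPM per kb over the 5 smaller libraries, against 54.9 for rps3, 45.9 for rpl16 and 18.5 for nad4. At 5 ng the per-length levels were 9.04 for ATMG00660, 5.54 for rps3, 4.31 for rpl16 and 11.7 for nad4. ATMG00690 had 73, 70, 246, 107 and 153 pairs and 164 at 5 ng. ATMG01170, ATMG01200, ATMG01000, ATMG01120, ATMG00400 and ATMG01130 also had pairs in every library, between 1 and 148. Among them ATMG01000 had 2 pairs at 10 pg and 148 at 100 pg, and ATMG01120 had 4 at 10 pg and 94 at 100 pg. ATMG00280 with 13 pairs at 50 pg and ATMG00820 with 9 pairs at 5 ng were each seen in no other library.

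**Figure D3:**
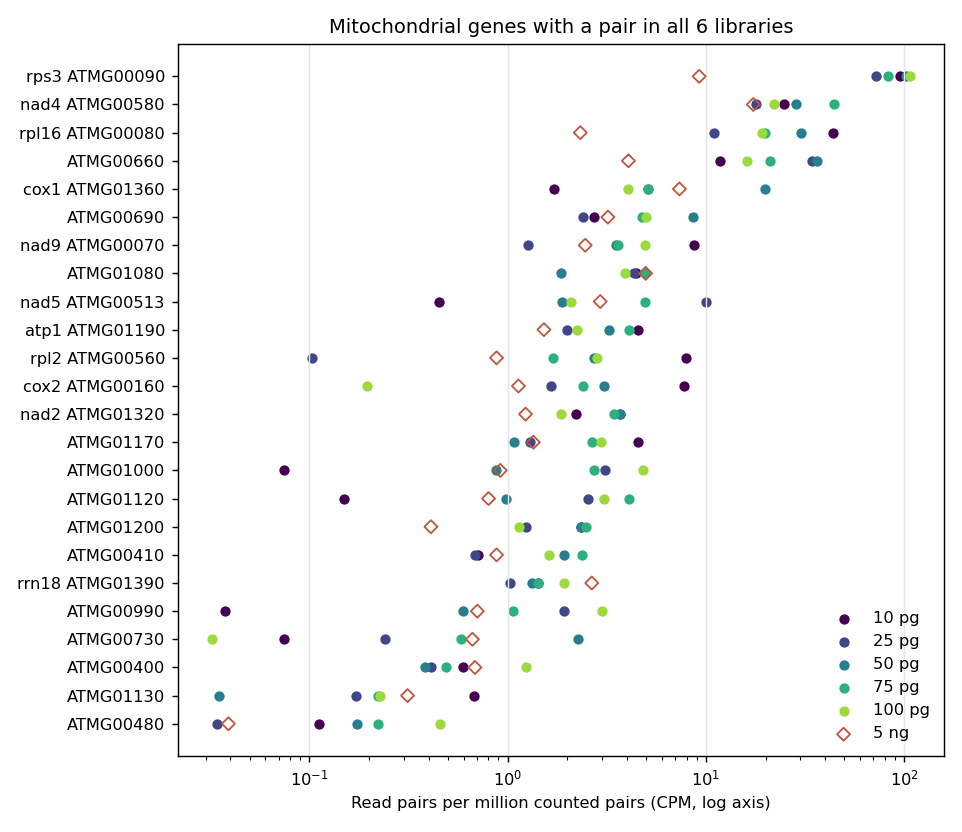
Each row is 1 of the 24 mitochondrial gene models with a pair in all 6 libraries, ordered by mean level, and each symbol is its level in 1 library in CPM on a log axis (filled circles for 10 to 100 pg, open diamonds for 5 ng). The 5 smaller libraries lie within 1.47-fold of each other for rps3, while they are spread over 77.1-fold for rpl2 and 79.8-fold for ATMG00990. The wide spreads rest on lowest counts of 3 pairs for rpl2 at 25 pg and 1 pair for ATMG00990 at 10 pg, against at least 1847 pairs for rps3.

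In the 10 pg library 38 mitochondrial genes had a pair. The libraries of 25, 50, 75 and 100 pg had 48, 53, 61 and 53 such genes, and that of 5 ng had 53. With at least 10 pairs the numbers were 23, 24, 32, 34, 29 and 36. When all libraries were thinned to the depth of the shallowest, 37.1, 45.7, 51.7, 61, 49.8 and 48.7 genes were expected, and the 10 pg library was still the lowest. Of the 53 genes detected at 100 pg, 24 had 0 pairs at 10 pg, which is 45.3% (95% interval 31.6 to 59.6%, with genes taken as independent), against 20.7% of all genes detected at 100 pg. Mitochondrial genes are on average low, with a median of 1.42 CPM against 16.6 CPM over all genes among those with at least 30 pairs in the 5 smaller libraries. Restricted to genes with at least 10 pairs at 100 pg, the loss at 10 pg was 6 of 29, or 20.7% (95% interval 7.99 to 39.7%), against 15.2% of all such genes, which lies within the interval. Of the 39 mitochondrial genes with at least 30 pairs over the 5 smaller libraries, 16 had 0 pairs in at least 1 of them, or 41.0%, against 24.7% of all genes. The median ratio of the highest to the lowest TMM-scaled CPM was 4.47 for the 23 others, against 5.02 for all genes without a 0.

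Which genes were lost differed between the small amounts. By the rule used for naming, ATMG01370, ATMG00520 and ATMG00790 had the highest level at 10 and 25 pg relative to 50, 75 and 100 pg. ATMG01370 had 90, 0, 3, 5 and 0 pairs, and ATMG00520 had 45, 0, 0, 5 and 0, so that their excess lay in the 10 pg library alone. ATMG00790, a model of 76 bases, had 97, 49, 0, 17 and 1 pairs. At the other end stood ccmB, atp4 and ATMG00810, all with 0 pairs at both 10 and 25 pg. ATMG00810 had 25, 21 and 8 pairs at 50, 75 and 100 pg and 65 at 5 ng.

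Ratios between libraries were counted where a gene had at least 20 pairs in either, with a count of 3 as the lower limit and TMM scaling. Between 10 and 100 pg, 4 of 29 mitochondrial genes were at least 4-fold higher at 10 pg and 8 were at least 4-fold lower, beside backgrounds of 9.67% and 36.0% of all genes. These shares rest on few genes and are not read as a difference from all genes. The median log2 ratio was -0.03 for mitochondrial genes and -0.44 for all genes. Between 100 pg and 5 ng, 1 of 36 mitochondrial genes was at least 4-fold higher at 100 pg and 15 were at least 4-fold lower, where 25.9% and 19.7% of all genes were. The median log2 ratio of 100 pg over 5 ng was -1.60 for mitochondrial genes and 0.29 for all genes. With library totals instead of TMM the counts were 6 higher and 8 lower of 36, beside 58.1% and 10.5% of all genes, and the medians were 0.61 and 2.50. The sign of the mitochondrial median thus changed with the scaling. Its distance of 1.89 on the log2 scale below the median of all genes is the same under both by construction, since a change of scaling shifts all genes equally. ATMG01020, with 44 pairs at 100 pg, 14 at 75 pg and 0 in the other libraries, was higher under both scalings. Under totals rps3 and rpl16 were among 5 further genes that were higher. Among those lower under both were cox2, atp4, ATMG00520, ATMG00730, ATMG00810 and ATMG01370.

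The slope of expression on log2 of the RNA amount was fitted over the 5 libraries from 10 to 100 pg with edgeR's quasi-likelihood test. Of the 33 mitochondrial genes that passed its filter on low counts, 0 had a Benjamini-Hochberg adjusted p under 0.05, the smallest being 0.312, as for all 17366 genes tested (0.0%). With an unadjusted p under 0.05 there was 1 mitochondrial gene, ATMG01020, beside 13.8% of all genes. Its slope was 3.62. DESeq2 called 0 mitochondrial genes after adjustment, beside 9.96% of all genes, and 0 at an unadjusted p under 0.05, beside 23.1% of all genes. The slopes of the leading genes were small relative to their standard errors: -0.06 (SE 0.14) for rps3, 0.05 (SE 0.30) for nad4 and -0.37 (SE 0.31) for rpl16, per doubling of the RNA. The median SE of the mitochondrial slopes was 0.87, well above the median size of the slopes, 0.45.

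The number of pairs on a mitochondrial gene was set beside how much of its sequence is also found in nuclear gene models. For each coding sequence of the mitochondrial annotation of TAIR10.1, all windows of 100 bases were searched for exact matches in nuclear transcripts. The TAIR10 models that the authors used may differ from it in places. For the 6 genes without any shared window, ccmB, rps3, rpl16, nad9, cox1 and atp4, the pairs over the 6 libraries numbered 173 to 13168. For the 6 with every window shared, rps4, rps7, rps12, rpl5, cob and ccmC, they numbered 0 to 3. Both groups hold only genes whose model was identified by its coding length. In between, cox2 had 6.43% of its windows shared, nad4 77.0%, rpl2 63.8%, nad7 63.8% and ccmFN2 53.4%, with 462, 4555, 463, 139 and 14 pairs. The genes ccmFN1 and atp1, with 94.9% and 98.9% shared, had 62 and 512 pairs. The whole coding sequences of the trans-spliced nad5 and nad2 had 91.2% and 67.1% of their windows shared. The models for parts of them, ATMG00513 and ATMG01320, had 682 and 470 pairs. The coding sequences of atp8, nad3, atp9 and cox3 also had every window shared, but no model was identified for them by length. The models annotated through nuclear copies as these subunits, ATMG00480, ATMG00990, ATMG01080 and ATMG00730, had 30, 226, 784 and 122 pairs. ATMG01080 and ATMG00730 are longer than the coding sequence searched. ATMG00480 and AT2G07707, the nuclear model noted as its match, are both 477 bases long, and both had pairs. AT2G07707 had 1 to 8 pairs per library. A pair within a shared stretch would match both models equally well and be removed under the authors' rule. How the pairs on these fully shared genes came to be counted was not tested. Whether removal of such pairs gave the low counts of other shared genes was not tested either. A count near 0 on a fully shared gene thus sets no limit on its expression.

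**Figure D4:**
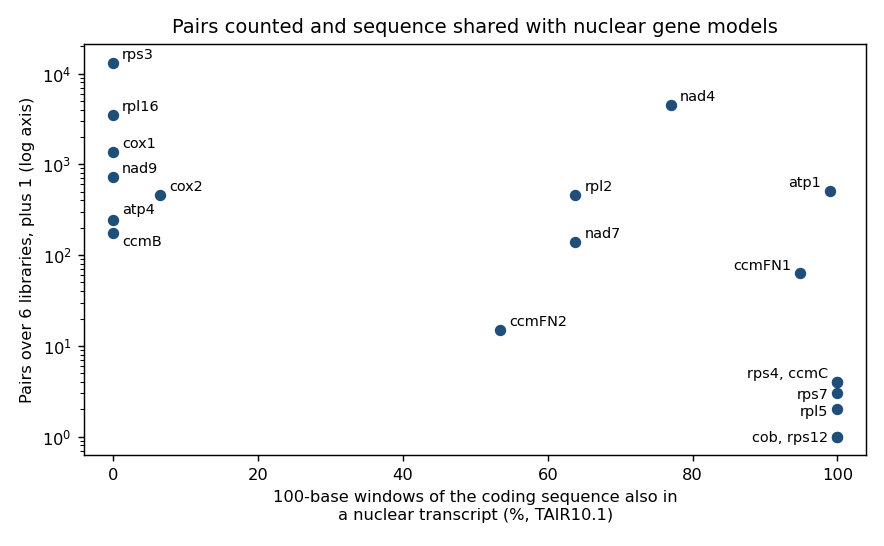
Each point is 1 of 19 mitochondrial genes with a complete coding sequence identified; the horizontal axis gives the percent of its 100-base windows that occur exactly in a nuclear transcript of TAIR10.1, and the vertical axis the pairs over the 6 libraries plus 1, on a log scale. Among the genes shown, which were identified by coding length, the 6 without a shared window have 173 to 13168 pairs. The 6 shown with every window shared have at most 3.

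The nuclear models with the shared sequence did have pairs. In all, 33 nuclear models held at least 1 window of a mitochondrial coding sequence, and they summed to 5225, 4753, 6383, 4163 and 5919 pairs from 10 to 100 pg and 4161 at 5 ng. This is 0.825, 0.861, 0.817, 0.767 and 0.871 times the pairs counted on the mitochondrial models themselves, and 1.01 times at 5 ng. AT2G07717, which holds the shared part of nad4, had 2366, 1651, 2215, 1398 and 1933 pairs and 1869 at 5 ng. These raw pairs outnumber those of nad4 in every library. However, AT2G07717 is 5949 bases long against 1488 for nad4, and scaled to length nad4 was the higher in every library. AT2G07783, with the sequence of ccmFN1, had 744, 655, 1424, 1064 and 1457 pairs and 311 at 5 ng. AT2G07696, which contains the rps7 sequence, had 730, 916, 623, 499 and 788 pairs and 117 at 5 ng, while rps7 itself had 2 in all. Likewise AT2G07727, with the cob sequence, had 88 to 175 pairs in each library. By the study's rule, a pair is counted only if both of its reads map unambiguously to 1 gene. Under that rule both reads of such pairs would reach beyond the shared stretch or differ within it. However, AT2G07696 had 1248 individually counted reads beside its 730 pairs at 10 pg, fewer than 2 per pair. Its counts therefore do not bear this out for every pair. Whether such molecules came from the nucleus or from the mitochondria was not tested.

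The individually counted reads gave a further view of the shared sequences. A counted pair whose reads are both counted gives 2 reads, and over all genes there were 2.13 reads per pair. The 6 genes without shared windows had 2.15 for rps3, 2.18 for rpl16, 2.12 for cox1, 2.16 for atp4, 2.26 for nad9 and 2.39 for ccmB. Values under 2 were found, among others, for cox2, of which only 6.43% of windows were shared, with 1.74, and for the part of nad5 with 1.62, ATMG01080 with 1.62, atp1 with 1.77 and ATMG00990 with 1.15, so some of their counted pairs held a read that was not counted on its own. The study states that both reads of a counted pair map unambiguously to 1 gene. How values under 2 arise beside that rule was not tested. For nad4 the value was highest at 25 pg, with 2.70, and lowest at 5 ng, with 1.32. At 5 ng nad4 took 15.6% of the mitochondrial reads, against 21.4% of the pairs, and it led the set by both counts. Among the 45 models that the annotation matches to a nuclear gene, the share of mitochondrial pairs was 6.62 to 8.90% in the smaller libraries and 15.2% at 5 ng.

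Nuclear genes for mitochondrial proteins were described for comparison. The 30 nuclear genes of respiratory complexes and ATP synthase summed to 5626, 4991, 5046, 5512 and 5116 CPM from 10 to 100 pg and to 797 CPM at 5 ng, with 28 or 29 of them detected in each library. These and the following CPM values use library totals. On totals the median log2 ratio of 100 pg over 5 ng was 2.50 for all genes. A lower level at 5 ng therefore cannot be read from these CPM values. The highest were ATPQ, a subunit of the ATP synthase, with a mean of 605 CPM over the 5 smaller libraries and 67.5 CPM at 5 ng, ATP5 with 461 and 71.7 CPM, and AT5G47030 with 416 and 50.0 CPM. The 22 nuclear genes of mitochondrial DNA upkeep and RNA metabolism summed to 363, 653, 587, 505 and 545 CPM and to 36.1 CPM at 5 ng, with 20 to 22 detected from 10 to 100 pg and 13 at 5 ng. Among them ATWHY2, a DNA-binding protein, had 115 CPM on average and 16.3 CPM at 5 ng, MTSSB 53.8 and 2.50 CPM, and PMH1, an RNA helicase, 53.7 and 1.43 CPM. None of either list passed the edgeR slope test after adjustment, as for all genes (0.0%), with 7 of 29 and 2 of 21 tested genes at an unadjusted p under 0.05, beside 13.8% of all genes.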

How the data were processed

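After quality trimming and a sortMeRNA filter for ribosomal sequences, the authors mapped the reads to 33602 representative TAIR10 gene models (Bowtie2, local option) and removed multi-hits. The submitters' notes also name TopHat2. The deposited files hold raw counts per model: read pairs, the main measure, and reads counted individually. Between 22403342 and 51130296 pairs per library were counted, so 3 counts, the limit for a count of 0, were 0.0587 to 0.134 CPM.

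Shares have exact Clopper-Pearson 95% intervals, for counting error only. CPM, TMM factors and the slope test used edgeR 4.0.16 in R 4.3.3, with DESeq2 1.42.0 as alternative, and the rest was computed in Python 3.11.15 (SciPy 1.17.1 for intervals, pandas 2.3.3, NumPy 2.4.6, matplotlib 3.10.9). The slope's p-values measure only how the libraries scatter around it. The slope script was tested on simulated data. The date effect removed in the study was not removed here.

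Of the 146 models, 26 had a coding or RNA length equal to that of 1 gene in the RefSeq TAIR10.1 annotation, and 24 of these were named, all in accord with the symbol listed. Notes on nuclear genes gave 45 models a match. The genes named are the 12 with the highest mean CPM from 10 to 100 pg, the leader of each library, all with pairs in every library, the 3 highest seen in 1 library, and the 3 highest and 3 lowest ratios of 10 and 25 pg to the larger amounts up to 100 pg, among those with at least 30 pairs. Further genes with few or no pairs were named after their values were seen. The members and lists were chosen with earlier results of these data known. Alternatives concerned the count used, the scaling, the genes and libraries included and the tool.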

Additional observations from a re-analysis of the deposited data

How the results depend on the processing

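The mitochondrial share of the counted pairs is given here under each alternative in the order 10, 25, 50, 75 and 100 pg and 5 ng. It was 0.0261%, 0.0210%, 0.0290%, 0.0263%, 0.0244% and 0.0237% without the 10 genes with the most pairs, 0.0221%, 0.0158%, 0.0205%, 0.0179%, 0.0156% and 0.0265% with TMM library sizes, and 0.0142%, 0.0117%, 0.0171%, 0.0160%, 0.0114% and 0.00635% without the leading gene. With the rows AT2G07600 to AT2G07849 added it was 0.0647%, 0.0441%, 0.0611%, 0.0572%, 0.0537% and 0.0186%. Without the models matched to a nuclear gene, an alternative chosen after seeing the data, it was 0.0216%, 0.0175%, 0.0255%, 0.0222%, 0.0202% and 0.00686%. Counted as reads it moved beyond its interval at 25 pg, to 0.0200%, and at 5 ng, to 0.00717%, and with pairs and reads summed to 0.0197% and 0.00747%. The 5 ng library was the lowest under all of these but 2: it was the highest with TMM sizes and lay inside the range of the others without the 10 top genes. With at least 10 pairs, 23, 24, 32, 34 and 29 genes were detected from 10 to 100 pg. By reads the leading gene took 46.9% at 100 pg and 15.6% at 5 ng.

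No mitochondrial gene was called on the slope under any alternative: edgeR with library totals, without the low-count filter, with all 6 libraries or without each library in turn, and DESeq2. Over all genes, DESeq2 called 1730 and edgeR with all 6 libraries 721, while edgeR over 5 libraries and without each library in turn called 0. The cause was not tested. No paired analysis was possible because each amount has 1 library. Counts under 10 pairs are near the limit that 3 counts allow, and with 1 library per amount no pair of amounts can be set against a spread between replicates. Thinned to the depth of the smallest library, 37.1 to 61 mitochondrial genes per library were still expected.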

Other observations

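The chloroplast genome, the other organelle genome of the cell, has 133 gene models in the table. They took 0.684%, 0.672%, 0.689%, 0.898% and 0.820% of the counted pairs from 10 to 100 pg and 0.107% at 5 ng, with 94 to 105 models detected per library. These are shares of library totals, so the limit on reading the mitochondrial share at 5 ng applies to them too. The 5 highest rows of the chromosome 2 interval from AT2G07600 to AT2G07849, which surrounds and includes the copy of the mitochondrial genome, were AT2G07717, AT2G07690, AT2G07783, AT2G07696 and AT2G07635. AT2G07690 (MCM5), a nuclear gene for a DNA replication licensing factor, had 3787, 973, 1595, 1387 and 1474 pairs from 10 to 100 pg and 0 at 5 ng. The pseudogene AT2G07635 had 481, 410, 461, 642 and 972 pairs and 33 at 5 ng.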
